A study of Mus musculus with 6 samples.

Results

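The laminin chain genes are 9 of the 23219 gene symbols measured by RNA-seq in whole mouse kidneys at embryonic day 17 (Lama1, Lama2, Lama3, Lama4, Lama5, Lamb1, Lamb2, Lamc1 and Lamc3), taken as the rows of the deposited table that carry these symbols. The 3 mutant kidneys (labels 6, 8 and 9) had the genotype Six2Cre Mta2flx/flx, and the 3 control kidneys (labels 5, 7 and 11) had the genotype Mta2flx/flx. Both groups thus carry the floxed Mta2 alleles, and only the mutants carry Cre, which Six2 regulatory sequence drives in the cap mesenchyme from which the nephron epithelium forms. The labels name no Cre-only control and do not say which exons the alleles lose. Nor do they tie the kidneys to embryos or litters, so a p-value here reflects the spread among these 6 samples, and that spread may be partly technical. The comparison asks what differs in the kidney when the nephron lineage loses Mta2, a subunit of the NuRD chromatin remodelling complex, in a series whose title concerns FSGS (focal segmental glomerulosclerosis), in which glomeruli scar and leak protein.

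Laminins are secreted heterotrimers of an alpha, a beta and a gamma chain that polymerise on cell surfaces and start the assembly of basement membranes. The trimer name lists its chains, so that laminin-111 holds the products of Lama1, Lamb1 and Lamc1, laminin-511 those of Lama5, Lamb1 and Lamc1, and laminin-521 those of Lama5, Lamb2 and Lamc1. As a glomerulus matures, laminin-111 gives way to laminin-511 and then to laminin-521, the form of the adult glomerular basement membrane, which podocytes and glomerular endothelial cells both secrete. Loss of LAMB2 causes Pierson syndrome, a congenital nephrotic syndrome. In a developing kidney the same chains are also made by tubules, ureteric epithelium, vessels and interstitium, so a whole-kidney level is a sum over all of these.

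Levels are given in BPM, the covered bases of a gene in a library scaled to a library total of 1000000. Summed coverage was 794 to 1235 megabases per library, and the 9 chains held between 13626 covered bases (Lama3) and 1757859 covered bases (Lamc1) in a library. The number of reads is unknown, so no counting interval is given. Mta2 had 139.6, 189 and 146 BPM in mutants 6, 8 and 9, against 220, 198 and 210 BPM in controls 5, 7 and 11, so the direction was that of the labels (limma adjusted p = 0.887). Kidney markers were present in every library, with Lrp2 of the proximal tubule at 1922 BPM or more, Nphs1 of the podocyte at 36.5 or more, Pecam1 of endothelium at 214 or more and Six2 of nephron progenitors at 8.93 or more. Control 11 had 2.30% of its bases on Lars2, against at most 0.482% in any other library, and mutant 9 had 173 BPM of the muscle gene Ttn, against at most 10.4.

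No laminin chain passed the test between genotypes, but 3 of the 9 chains, Lama1, Lama5 and Lamb1, had lower levels in all 3 mutants than in any control, at 85.8%, 83.8% and 86.3% of the control mean. Lamb2, the beta chain of laminin-521, stood at 107% of the control mean and Lama2 at 132%, both with overlap between the groups. All 9 chains passed the filter on low levels (at least 1 BPM in at least 3 libraries), and limma called 0 of the 9 and 0 of 13977 genes tested, a background of 0.00%, at an adjusted p of 0.05. At an unadjusted p under 0.05 limma gave 0 of the 9 chains and 783 of the 13977 genes (5.60%). Groups did not overlap for 11.2% of all genes tested, with mutant kidneys lower for 5.12% and higher for 6.10%, against 3 chains lower and 0 higher of the 9. The median log2 fold change over the 9 chains was -0.09, against 0.02 over all genes tested, and 6 of the 9 lay below 0 (47.4% of all genes).

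**Figure D1:**
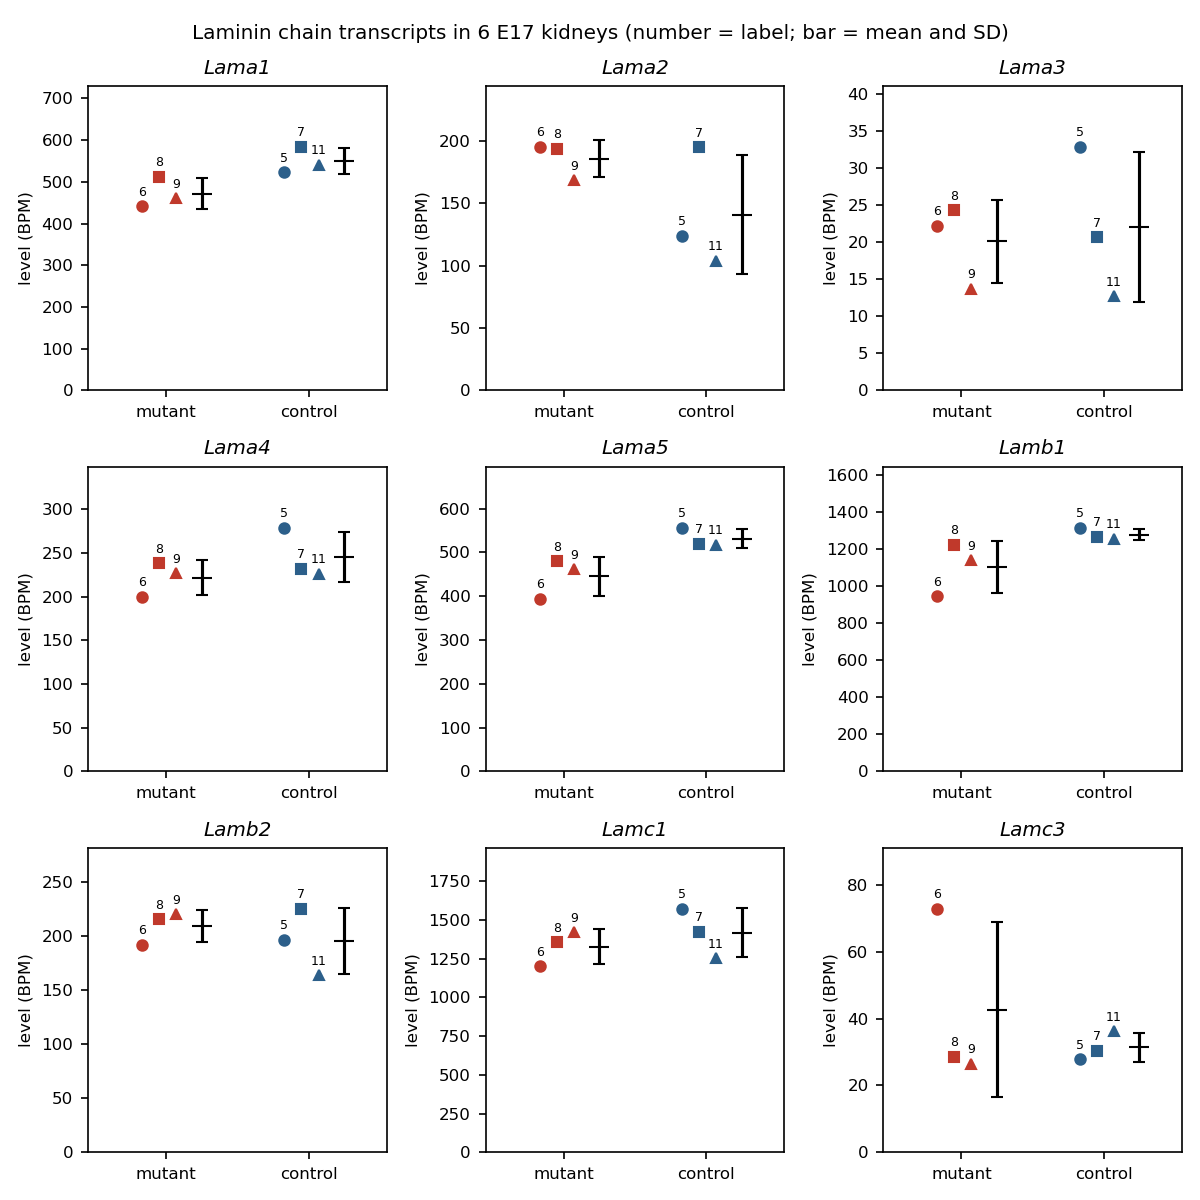
Level in BPM of each of the 9 laminin chains in each kidney, mutant kidneys left of control kidneys, with label numbers beside the points and bars for mean and SD (n = 3 each). Every mutant point lies below every control point for Lama1, Lama5 and Lamb1, Lamc3 is high in mutant 6 at 72.8 BPM, and the groups overlap for the other chains.

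Lama5 encodes the alpha chain of the mature glomerular basement membrane and of many other epithelial basement membranes. It had 395, 480 and 461 BPM in mutants 6, 8 and 9, against 556, 520 and 518 BPM in controls 5, 7 and 11. The highest mutant kidney was thus below the lowest control kidney, and mutant 6 was the lowest of all. The means were 445 ± 44.9 BPM in mutant and 531 ± 21.5 BPM in control kidneys (SD, n = 3 each). On the log2(BPM + 1) scale this gave a log2 fold change of -0.26 (95% interval -0.61 to 0.10, SE 0.18), with a limma adjusted p of 0.896 and an exact two-sided permutation p of 0.1, the smallest that 3 against 3 kidneys allow. In a whole-kidney sample, fewer cells of a type and less RNA per cell cannot be told apart.

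Lamb1, the beta chain that Lama1 and Lama5 products pair with in laminin-111 and laminin-511, had 948, 1225 and 1142 BPM in mutants 6, 8 and 9, against 1316, 1267 and 1257 BPM in controls 5, 7 and 11. The control kidneys lay close together, the mutants were spread more widely, and the gap between mutant 8 and control 11 was small. The log2 fold change was -0.22 (SE 0.16, limma adjusted p = 0.897), and it was -0.11 without mutant 6. The 6 kidneys fell in the same order for Lamb1 as for Lama5, which was mutant 6, mutant 9, mutant 8, control 11, control 7 and control 5 from low to high.

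Lama1, the alpha chain of the early laminin-111 and in the grown kidney a chain of proximal tubule basement membrane and mesangium, had 441, 512 and 461 BPM in mutants 6, 8 and 9, against 523, 584 and 541 BPM in controls 5, 7 and 11. The mutants took the same order as for Lama5 and Lamb1, while control 5 and not control 11 was the lowest control. The log2 fold change was -0.22 (SE 0.17, limma adjusted p = 0.909). The early and the late alpha chain therefore stood lower by similar amounts.

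In the authors' deposited table the unadjusted p was 0.0405 for Lama5, 0.0487 for Lama1 and 0.106 for Lamb1. Of all 23219 symbols in that table, 760 (3.27%) had a p under 0.05. That share also counts symbols below the filter on low levels, which all 9 chains passed, so it is not a background of expressed genes. Limma shares the spread between genes. For Lama5 it used an SD of 0.22 on the log2 scale, where the gene's own SD within groups was 0.11. For Lama1 it used 0.21, where the gene's own SD was 0.10, and for Lamb1 0.19 against 0.14. The SD used was also larger than the gene's own for Lama4, Lamb2 and Lamc1. It was smaller for Lama2 (0.28 against 0.34), Lamc3 (0.44 against 0.58) and Lama3 (0.52 against 0.55).

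Lamc1 encodes the gamma chain shared by laminin-111, laminin-511 and laminin-521. It had 1202, 1356 and 1421 BPM in mutants 6, 8 and 9, against 1570, 1423 and 1254 BPM in controls 5, 7 and 11. The groups overlapped through control 11, and the log2 fold change was -0.09 (SE 0.15, limma adjusted p = 0.956). Lamb2 had 192, 215 and 219.8 BPM in mutants 6, 8 and 9, against 196, 225 and 164 BPM in controls 5, 7 and 11. Control 11 was the lowest kidney and control 7 the highest, so both extremes were controls. Its log2 fold change was 0.11 (95% interval -0.31 to 0.53, SE 0.21, limma adjusted p = 0.961), and -0.010 without control 11.

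**Figure D2:**
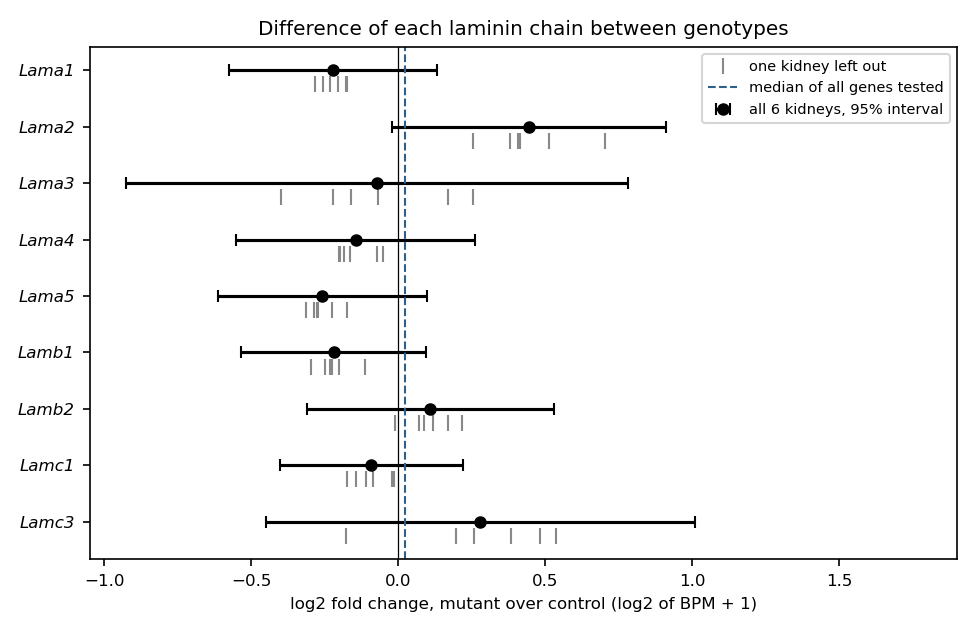
Log2 fold change of each chain, mutant over control, on the log2(BPM + 1) scale, with the limma 95% interval (black), the value with each kidney left out in turn (grey ticks) and the median of all genes tested (dashed, 0.02). All 9 intervals include 0, and the ticks stay on the negative side for Lama1, Lama4, Lama5, Lamb1 and Lamc1.

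The upstream sequence of the late alpha chain and of the early and the late beta chain is shown as a description of these loci, and no link between it and the levels was tested. RefSeq promoter windows (GRCm38.p6) were found for 4 of the 9 chains, Lama2, Lama5, Lamb1 and Lamb2. The 250 bases before the RefSeq start are printed 5′ to 3′ on the gene's strand, with GC boxes (GGGCGG on either strand) in capitals.
Lama5, chr2:180225860-180226109, minus strand: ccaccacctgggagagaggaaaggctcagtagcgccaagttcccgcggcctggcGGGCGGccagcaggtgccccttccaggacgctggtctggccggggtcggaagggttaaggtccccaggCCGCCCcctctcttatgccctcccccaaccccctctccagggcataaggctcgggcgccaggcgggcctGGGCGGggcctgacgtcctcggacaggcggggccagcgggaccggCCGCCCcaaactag
Lamb1, chr12:31265043-31265292, plus strand: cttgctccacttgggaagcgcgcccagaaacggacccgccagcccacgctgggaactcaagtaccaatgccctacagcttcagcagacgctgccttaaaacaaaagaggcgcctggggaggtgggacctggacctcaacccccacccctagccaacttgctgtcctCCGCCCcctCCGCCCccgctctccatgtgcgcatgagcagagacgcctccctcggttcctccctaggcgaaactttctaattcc
Lamb2, chr9:108479612-108479861, plus strand: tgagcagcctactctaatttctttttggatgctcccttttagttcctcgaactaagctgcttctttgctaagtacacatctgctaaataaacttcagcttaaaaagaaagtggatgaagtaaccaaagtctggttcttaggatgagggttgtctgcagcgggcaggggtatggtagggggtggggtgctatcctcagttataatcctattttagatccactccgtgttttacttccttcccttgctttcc
The GC box, a motif that Sp family factors are known to bind, occurred at 4 places before Lama5, at 2 before Lamb1 and at 0 before Lamb2 and Lama2, and 32.7% of all 32851 RefSeq windows of this length held it. CpG dinucleotides numbered 19 before Lama5, 14 before Lamb1, 3 before Lamb2 and 0 before Lama2, against a median of 6 over all windows. These counts describe letters in the window and say nothing of which factors bind there. The RefSeq starts differ from the GENCODE starts for Lama2, Lamb1 and Lamb2. The Lama2 window (chr10:27616943-27617192, minus strand) lies inside the GENCODE gene, which starts at 27619758. The Lamb1 and Lamb2 windows run past the GENCODE starts at 31265234 and 108479736.

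The laminin-111 to laminin-521 change was followed as a pair of ratios within each library, Lama5 over Lama1 and Lamb2 over Lamb1, which do not depend on library scaling apart from the pseudocount. Neither ratio separated the genotypes. The log2 ratio of Lama5 over Lama1 was -0.16, -0.09 and 0.00 in mutants 6, 8 and 9, against 0.09, -0.17 and -0.06 in controls 5, 7 and 11. Controls held both the highest and the lowest ratio. The means were -0.09 ± 0.08 in mutant and -0.05 ± 0.13 in control kidneys (SD, n = 3 each), a difference of -0.04 (exact two-sided permutation p = 0.7, 0.7 after Benjamini-Hochberg adjustment over the 2 ratios).

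The log2 ratio of Lamb2 over Lamb1 was -2.30, -2.50 and -2.37 in mutants 6, 8 and 9, against -2.74, -2.49 and -2.93 in controls 5, 7 and 11. Mutant 8 and control 7 nearly coincided, and the other mutants lay above all controls. The means were -2.39 ± 0.10 in mutant and -2.72 ± 0.22 in control kidneys (SD, n = 3 each), a difference of 0.33 or 1.26-fold (exact two-sided permutation p = 0.2, 0.4 after adjustment over the 2 ratios). Leaving out control 11 gave 0.22, leaving out control 7 gave 0.44, and leaving out control 11 together with mutant 6 gave 0.18. Per transcript length, Lamb2 made up 16.6%, 14.8% and 16.0% of the sum of Lamb1 and Lamb2 in mutants 6, 8 and 9, against 12.8%, 14.9% and 11.4% in controls 5, 7 and 11. Lama5 made up 42.8%, 43.9% and 45.6% of the sum of Lama1 and Lama5 in mutants 6, 8 and 9, against 47.1%, 42.7% and 44.4% in controls 5, 7 and 11. At embryonic day 17 the early beta chain thus exceeded the late one in every kidney of either genotype, while the early and the late alpha chain were closer together.

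**Figure D3:**
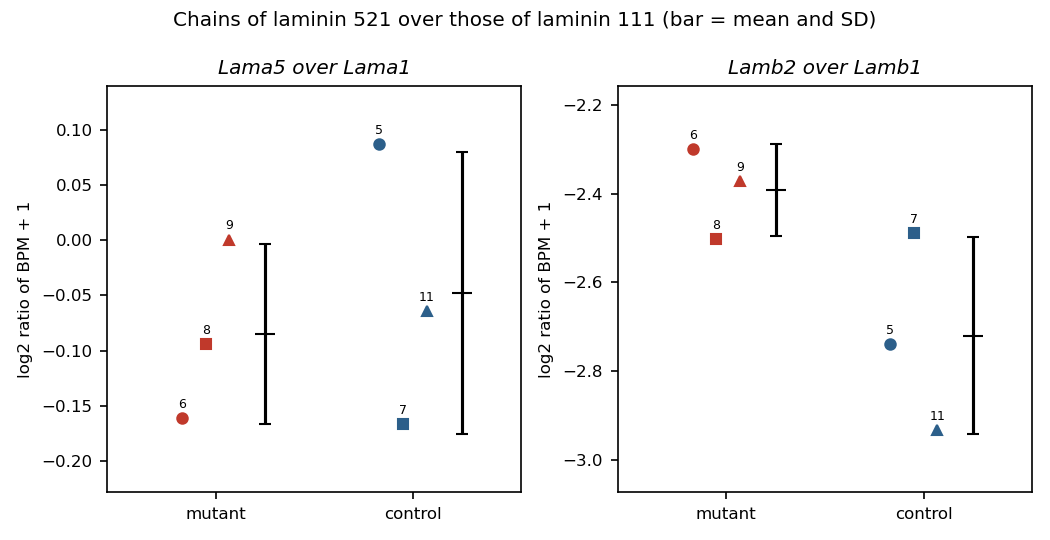
Log2 ratio of BPM + 1 of Lama5 over Lama1 (left) and of Lamb2 over Lamb1 (right) in each kidney, mutant left of control, with label numbers and bars for mean and SD (n = 3 each). The alpha ratios are intermixed, and the beta ratios overlap only through mutant 8 at -2.50 and control 7 at -2.49.

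Lama2 encodes the alpha chain of laminin-211, known best from muscle and Schwann cell basement membranes and also a chain of the mesangium. It had 195, 193 and 169 BPM in mutants 6, 8 and 9, against 124, 195 and 104 BPM in controls 5, 7 and 11. The mutants lay close together at the height of control 7, and the other controls were lower. The log2 fold change of Lama2 was 0.44 (95% interval -0.020 to 0.91, SE 0.23, limma adjusted p = 0.887), and it was 0.70 without control 7, when the groups no longer overlapped, and 0.25 without control 11. The summed level of 12 skeletal muscle genes was 364 BPM in mutant 9 and 28.3 to 47.3 BPM in the other kidneys, with Myog at 0 in all. The summed level of 10 kidney stroma genes was 3219 to 3874 BPM in mutant and 2621 to 3120 BPM in control kidneys. Of the 10, 7 had a log2 fold change above 0 and 3 below, among them Col3a1 (-0.03) and Foxd1 (-0.19). The lack of overlap in this sum rested on Fat4. It had 865, 1103 and 886 BPM in mutants 6, 8 and 9, against 768, 597 and 401 BPM in controls 5, 7 and 11. Over 8 Schwann cell and nerve genes the sum was 155 to 193 BPM in mutant and 128 to 147 BPM in control kidneys. Mesangium and vascular smooth muscle genes, 8 in number, summed to 923 to 1201 BPM in mutant and 1104 to 1288 BPM in control kidneys. These sums overlapped, and 5 of the 8 genes lay below 0 (median log2 fold change -0.24). The part of these cells in the Lama2 level was not tested.

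Lama4, the alpha chain of laminin-411 in vessels and mesenchyme, had 199.8, 239 and 227 BPM in mutants 6, 8 and 9, against 279, 232 and 226 BPM in controls 5, 7 and 11. Apart from a low mutant 6 and a high control 5 the kidneys lay close together, and the log2 fold change was -0.15 (SE 0.20, limma adjusted p = 0.947), or -0.05 without control 5. The summed level of 10 endothelial genes overlapped likewise, at 1330 to 1397 BPM in mutant and 1230 to 1516 BPM in control kidneys.

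Lamc3 encodes a gamma chain of restricted expression that is found with Lama2, Lama4 or Lama5 products. It had 72.8, 28.6 and 26.5 BPM in mutants 6, 8 and 9, against 27.8, 30.4 and 36.2 BPM in controls 5, 7 and 11. Mutant 6 alone was high, and the other mutants lay at the low end of the controls. The log2 fold change of 0.28 (SE 0.36, limma adjusted p = 0.939) turned to -0.18 without mutant 6. Lama3, the alpha chain of an epithelial laminin, had 22.2, 24.3 and 13.7 BPM in mutants 6, 8 and 9, against 32.9, 20.7 and 12.7 BPM in controls 5, 7 and 11. Its values overlapped throughout (log2 fold change -0.07, SE 0.42, limma adjusted p = 0.989), and its coverage was thin, with 1.29 to 2.47 covered bases per base of its transcript.

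The order of the 9 chains could be read only per transcript length, here in BPM per kb of the GENCODE principal transcript. Lamb1 and Lamc1 led, with Lamb1 at 199 ± 25.6 in mutant and 230.3 ± 5.66 in control kidneys and Lamc1 at 174 ± 14.7 in mutant and 186 ± 20.8 in control kidneys (BPM per kb, SD, n = 3 each). Their ranges over the 6 kidneys overlapped, and the order turned round when the length of all annotated exons was used. Lama1 was next, at 49.5 ± 3.85 in mutant and 57.7 ± 3.26 in control kidneys, ahead of Lama5 at 39.1 ± 3.94 and 46.6 ± 1.89, each as BPM per kb. Lama1 exceeded Lama5 in 6 of 6 kidneys by 1.13 to 1.34 times. Lama4 and Lamb2 followed at medians of 37.9 and 36.5 BPM per kb and could not be ordered on this length, with Lama4 higher in 3 of 6 kidneys. With the length of all annotated exons the medians were 19.0 for Lama4 and 33.8 BPM per kb for Lamb2. Lama2 had a median of 18.8, Lamc3 of 5.02 and Lama3 of 2.03 BPM per kb. Lamb3 encodes a beta chain that pairs with the Lama3 product. It was at 0, 1.46 and 0.730 BPM per kb in mutants 6, 8 and 9, against 0.770, 0.184 and 0.725 BPM per kb in controls 5, 7 and 11.

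**Figure D4:**
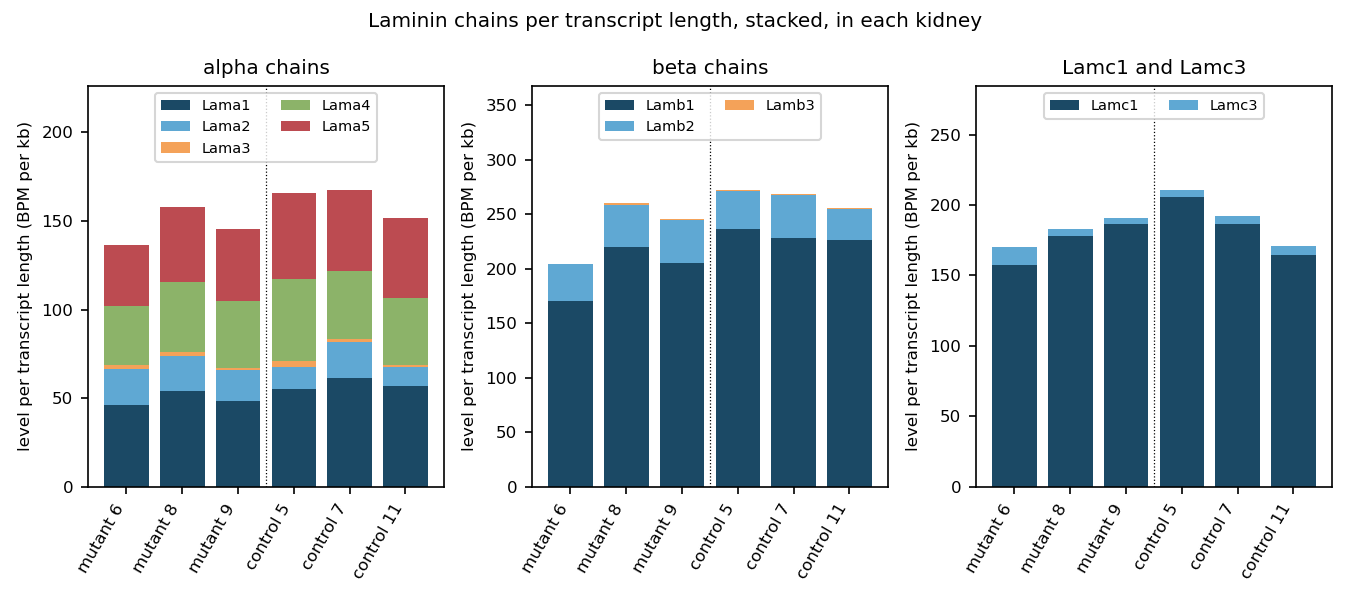
Stacked level per length of the principal transcript (BPM per kb) of the alpha chains, the beta chains, and Lamc1 with Lamc3 in each kidney. Mutants are left of the dotted line and controls right of it. Lamb1 makes up most of the beta chains and Lamc1 exceeds Lamc3 in all 6 kidneys, and the alpha chains are divided mainly among Lama1, Lama5 and Lama4.

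Summed over 5 alpha chains, the level was 136, 158 and 145 BPM per kb in mutants 6, 8 and 9, against 165.8, 168 and 152 BPM per kb in controls 5, 7 and 11. The alpha sums overlapped through mutant 8 and control 11. Lama1 was 33.3% to 34.1% of the alpha sum in mutant and 33.1% to 37.5% in control kidneys, Lama5 was 25.4% to 27.9% in mutant and 27.3% to 30.0% in control kidneys, and Lama2 was 12.1% to 14.9% in mutant and 7.13% to 12.1% in control kidneys.

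Marker genes of nephron segments, and of the ureteric bud and collecting duct, were summed beside the chains. The summed level of 8 proximal tubule genes was 3713 to 5388 BPM in mutant and 6131 to 7597 BPM in control kidneys, with no overlap, and all 8 had a log2 fold change below 0. The sum of 12 podocyte genes was 1987 to 2260 BPM in mutant and 2118 to 2733 BPM in control kidneys, which overlapped, and 9 of the 12 lay below 0. Loop of Henle and distal tubule genes also overlapped in their sum, at 462 to 613 BPM in mutant and 581 to 873 BPM in control kidneys, and 4 of the 6 lay below 0. Ureteric bud and collecting duct genes ran the other way, with a sum of 569.6 to 665 BPM in mutant and 498 to 574 BPM in control kidneys, which overlapped, and 7 of the 9 lay above 0 (median log2 fold change 0.29). The part of these cells in the levels of Lama1, Lama5 and Lamb1 was not tested.

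Among all 9090 genes with at least 10 BPM in every library, those most like Lama1 over the 6 libraries were Wt1 (Pearson r of log2 level 0.98), a podocyte and progenitor transcription factor, Lrp2 (0.98), the endocytic receptor megalin, and Slc22a13 (0.98). Those most like Lama5 were Eif2ak3 (Pearson r 0.998), an endoplasmic reticulum stress kinase, Jkamp (0.99) and Fam213a (0.98). Those most like Lamb1 were Cdc34 (0.98), Clint1 (0.98) and Lama5 (0.98), and those most like Lamb2 were Prdm2, Ltn1 and Crip1 (0.99 each). These genes are the extremes of 9090 compared over 6 libraries, and 14 to 35 genes exceeded an r of 0.95 for Lama5, Lama1, Lamb1 and Lamb2.

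Other basement membrane proteins that surround or bind laminin lay on both sides of 0. Of 10 network partners 0 passed in either direction, 4 lay above and 6 below 0, and the median log2 fold change was -0.21. Agrn, which encodes agrin, a heparan sulfate proteoglycan that ties laminin to dystroglycan, had 852, 843 and 905 BPM in mutants 6, 8 and 9, against 981, 997 and 1143 BPM in controls 5, 7 and 11. All mutants were below all controls (log2 fold change -0.26, limma adjusted p = 0.893). Smoc2, a matricellular calcium-binding protein, had 71.6, 92.0 and 87.8 BPM in mutants 6, 8 and 9, against 43.5, 52.5 and 47.5 BPM in controls 5, 7 and 11. All mutants were above all controls (log2 fold change 0.79, limma adjusted p = 0.744). Hspg2, which encodes perlecan, overlapped at 720 ± 185 BPM in mutant and 859 ± 141 BPM in control kidneys (SD, n = 3 each), and its log2 fold change of -0.27 was -0.058 without mutant 6. Nid1 and Nid2, the nidogens that link laminin gamma chains to type IV collagen and that were named after their values were seen, were at log2 fold changes of 0.047 and 0.018.

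Laminin receptors also lay on both sides. Of 12 genes 0 passed in either direction, 5 lay above and 7 below 0, and the groups did not overlap for 4 with mutants lower and 2 with mutants higher, against 5.12% (lower) and 6.1% (higher) of all genes tested. Sdc4, a cell surface heparan sulfate proteoglycan, had 282, 283 and 288 BPM in mutants 6, 8 and 9, against 362, 396 and 668 BPM in controls 5, 7 and 11. The mutants were tightly grouped below a wide control range (log2 fold change -0.68, limma adjusted p = 0.532, or -0.41 without control 11). Cd151, a tetraspanin that joins laminin-binding integrins and whose loss in mice causes glomerular disease, had 77.9, 87.9 and 108 BPM in mutants 6, 8 and 9, against 129, 127 and 142 BPM in controls 5, 7 and 11. All mutants were below all controls (log2 fold change -0.55, limma adjusted p = 0.854). Bcam, a receptor for the Lama5 chain, overlapped at 341 ± 32.7 BPM in mutant and 533 ± 251 BPM in control kidneys (SD, n = 3 each), and its log2 fold change of -0.55 was -0.19 without control 11.

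The integrin that podocytes use to hold laminin-521 pairs the products of Itga3 and Itgb1, both named after their values were seen. Itga3 had 157, 131 and 158 BPM in mutants 6, 8 and 9, against 177, 235 and 169 BPM in controls 5, 7 and 11, and all mutants were lower (log2 fold change -0.37, limma adjusted p = 0.887). Itgb1, the common beta subunit, had 961, 848 and 803 BPM in mutants 6, 8 and 9, against 711, 791 and 761 BPM in controls 5, 7 and 11, and all mutants were higher (log2 fold change 0.20, limma adjusted p = 0.911). The subunits thus stood apart in opposite directions by less than the test could call. Of 5 tested genes for dystroglycan glycosylation, which makes its laminin-binding glycan, 0 passed, with 2 above and 3 below 0. Tmem5, a xylosyltransferase of that glycan, had a log2 fold change of 0.67 with no overlap (limma adjusted p = 0.874), and Pomgnt1 was at -0.16.

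**Figure D5:**
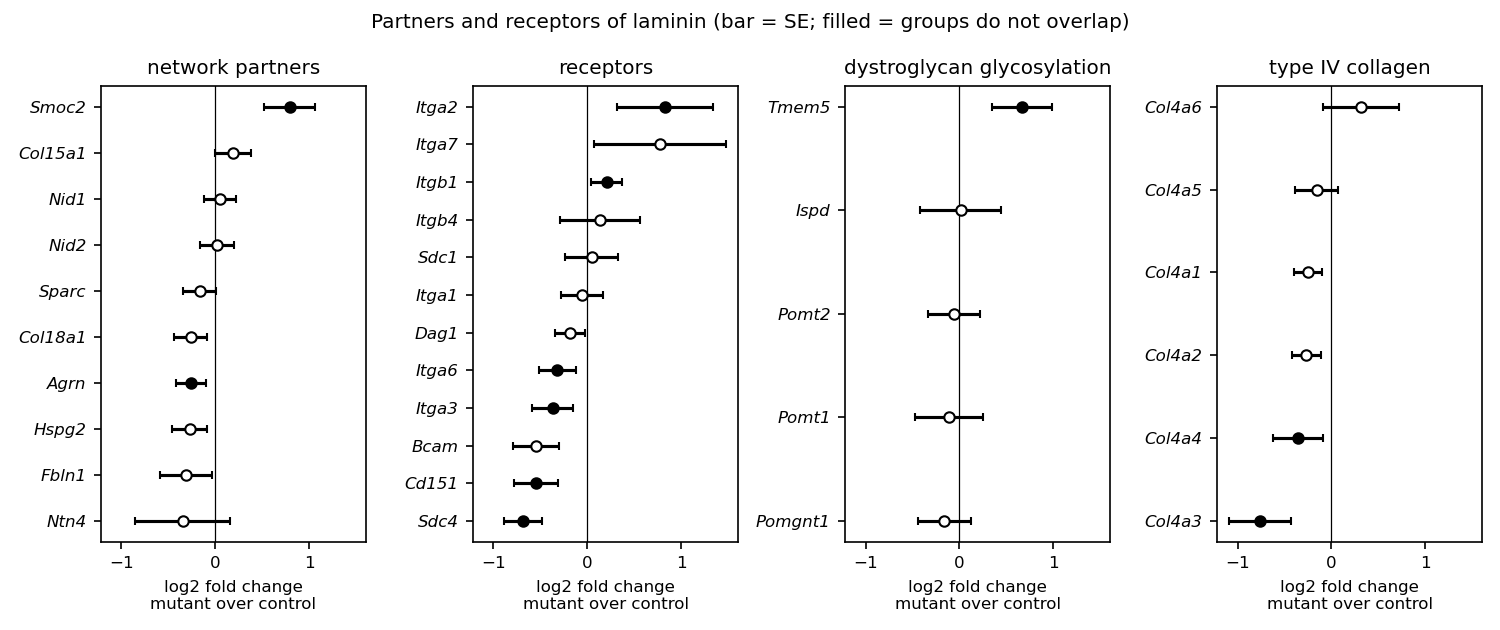
Log2 fold change with SE, mutant over control, of laminin network partners, laminin receptors, dystroglycan glycosylation genes and type IV collagen chains, with filled points where the groups do not overlap. Points lie on both sides of 0 in each panel, with Smoc2 at 0.79, Sdc4 at -0.68 and Col4a3 at -0.76, and none of these genes passed the threshold.

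Type IV collagen has a parallel change in the glomerulus, in which the Col4a3, Col4a4 and Col4a5 chains replace much of the Col4a1 and Col4a2 network. Col4a3 had 33.0, 34.6 and 23.1 BPM in mutants 6, 8 and 9, against 75.04, 46.9 and 37.7 BPM in controls 5, 7 and 11, with no overlap (log2 fold change -0.76, limma adjusted p = 0.854, or -0.48 without control 5). Col4a2 was at -0.27 and Col4a1 at -0.25, both with overlap, and Col4a1 was at -0.083 without control 11. Of the 6 chains 0 passed and 5 lay below 0. The groups did not overlap for 2 with mutants lower and 0 with mutants higher, against 5.12% (lower) and 6.10% (higher) of all genes tested. The other late chains, named after their values were seen, were at -0.35 without overlap (Col4a4) and -0.16 with overlap (Col4a5).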

How the data were processed

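RNA of 6 mouse kidneys (3 mutant, 3 control) was depleted of ribosomal RNA and sequenced after Ion Total library preparation, per the labels' protocols. Genome build mm10 and bedtools are named per the submitters' processing notes, with the aligner and annotation not given in the sources used. The deposited signal holds base coverage by gene. Dividing a column by its smallest value gave whole numbers for 100% of entries (tolerance 0.001), so the authors' values are covered bases plus 1, times a library factor. The deposited ratio sets mutant over control means, and the deposited p-value is unadjusted. Covered bases are not reads, and long transcripts weigh more in them.

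The floor was removed and covered bases were scaled to 1000000 per library (BPM). The 13977 genes that reached 1 BPM in 3 or more libraries were compared on log2(BPM + 1) in limma 3.58.1 (two-sided, trend and robust options, no covariate), adjusted over all of them by Benjamini-Hochberg with a threshold of 0.05. Fold changes on this scale understate the change of low genes. The 2 ratios were compared by exact permutation. No number occurs in both groups, so samples are unpaired. Lengths and coordinates are from GENCODE M21 (mm10), and promoters are from RefSeq.

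The members and gene lists were chosen with earlier results of these data known. Genes named are the 9 chains and Lamb3, the only gene of its list. Of each partner list the 3 with the smallest p are named (2 for dystroglycan glycosylation). Also named are the 3 genes most like Lama1, Lama5, Lamb1 and Lamb2 (the rule covers every member, and the others are not printed). Nid1, Nid2, Itga3, Itgb1, Col4a4 and Col4a5 lie outside the rule and were named after their values were seen. The dystroglycan glycosylation list had 5 of its 8 symbols in the table. Some genes of the family and of these lists are not reported here. Strand use in counting is not given, so reads of an antisense gene and its partner cannot be told apart, and Lama2, Lama3, Lamc1 and Lamc3 overlap opposite-strand gene models. Alternatives were other scalings, filters, a pseudocount of 0.1, limma without trend or with sample weights, and libraries left out.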

Additional observations from a re-analysis of the deposited data

How the results depend on the processing

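No paired analysis was possible because the groups share no replicate number. The count of genes past an adjusted p of 0.05, 0 in limma (783 at an unadjusted p under 0.05), was 1 with quantile normalization, 1 without the trend, 4 with sample weights and 22 without control 11 and mutant 6 together, and ran from 0 to 8 with 1 kidney left out. No laminin chain passed under any of these. Lama1, Lama5 and Lamb1 stayed lower without overlap under median-of-ratios scaling. Under quantile normalization Lamb1 overlapped (2 chains without overlap). The other alternatives could not end a separation of these chains. Leaving kidneys out cannot make separate groups overlap, and filters, pseudocount and limma options do not change the order of the kidneys. The median over the chains ran from -0.20 to -0.014 with 1 kidney left out. Directions turned for Lama3 without mutant 9 or control 5 (-0.40 to 0.25 with 1 kidney left out), Lamb2 without control 11 (-0.010 to 0.22), and Lamc3 without mutant 6 (-0.18 to 0.53) or without control 11 and mutant 6 (-0.075). Among genes outside the family, a check added after seeing the data, they turned for Pomgnt1 (-0.35 to 0.012). The difference in the Lama5 over Lama1 ratio ran from -0.096 to 0.031, and that of Lamb2 over Lamb1 from 0.22 to 0.44, with 1 kidney left out. The causes were not tested. Read depth is unknown, and Lama3 and Lamc3 rest on the fewest covered bases.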
